A study of Mus musculus with 18 samples.

Results

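Artn, Cxcr7 (now named Ackr3), Gm14862 and Arhgef12 are 4 of the 54232 genes in a table of nascent RNA counts from sorted mouse fetal liver cells. They were chosen by symbol because their nascent RNA went from 0 or low counts in S0-Low, the least mature erythroid population, to a high level in S3, the most mature. Values in S0-Low and S3 therefore describe the choice and are given without a test, and only S0-Medium, S1, S2 and lineage-positive (Lin+) cells carry tests of these genes.

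The cells were unedited primary cells of C57BL/6 embryos at e12.5 to e13.5. Cells with markers of other blood lineages (Lin) were set apart, and the remaining cells were sorted by CD71, the transferrin receptor, and by Ter119, a surface marker gained late in red cell formation. S0-Low was Lin- and Ter119- and is labelled CD71 low, and the study places stem and progenitor cells and burst-forming units there. S0-Medium had medium CD71 and no Ter119, and S1 had high CD71 and no Ter119. In the study these correspond to early and late colony-forming erythroid cells. S2 had high CD71 with medium Ter119 and S3 had high CD71 with high Ter119, and these are the terminally differentiating cells. Lin+ cells stained for the lineage panel. All sorted cells rested for 6 h in culture and then received 500 µM 4-thiouridine (4sU), a uridine analogue that marks RNA as it is made, for 45 min, so the level of each gene is that of cultured cells after sorting. Each of the 6 populations had 3 libraries, 18 in all, with total counts from 9452476 (S0-Low replicate 3) to 40567976. The labels do not say whether replicates came from separate embryos or litters, so p-values measure the spread between these libraries. In sorted bulk samples, more cells making an RNA and more RNA per cell cannot be told apart.

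The proteins of Artn, Cxcr7 and Arhgef12 belong to signalling systems that are better known outside the red cell lineage. Artn encodes artemin, a secreted ligand of the GDNF family that acts on neurons through the receptor GFRα3 and the RET tyrosine kinase. Cxcr7 encodes an atypical chemokine receptor that binds and removes the chemokines CXCL12 and CXCL11 and signals through arrestins rather than G proteins. Arhgef12 encodes LARG, an exchange factor that couples the G proteins of the G12/13 class to the small GTPase RhoA, a regulator of the actin cytoskeleton. Gm14862 is a little-described locus, and RefSeq lists it as a long non-coding RNA. Red cell precursors condense their nuclei, remodel their membrane skeleton and fill with haemoglobin as they pass from S0-Low to S3.

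In RefSeq annotation of GRCm38.p6, Artn lies on the minus strand of chromosome 4 (chr4:117925908-117930795) and Ackr3 on the plus strand of chromosome 1 (chr1:90203980-90215724). Gm14862 lies on the minus strand of the X chromosome (chrX:9250925-9256932), inside the span of Lancl3, which is on the other strand. Arhgef12 spans chr9:42963842-43105718 on the minus strand. The 250 bases before the RefSeq start of each gene are shown because they differ in composition and in the short motifs they hold, although all 4 genes had their highest level in the same population. They are from RefSeq (GRCm38.p6), written 5′ to 3′ on the strand of the gene, at chr4:117929764-117930013, chr1:90203730-90203979, chrX:9256933-9257182 and chr9:43105719-43105968. The RefSeq span of Artn reaches further 5′ than the start used for its window. Capitals mark matches, on either strand, to a GATA motif (GATA with A or T before it and A or G after it), a CACCC-type motif (CCNCNCCC), TATAAA and CCAAT.
Artn: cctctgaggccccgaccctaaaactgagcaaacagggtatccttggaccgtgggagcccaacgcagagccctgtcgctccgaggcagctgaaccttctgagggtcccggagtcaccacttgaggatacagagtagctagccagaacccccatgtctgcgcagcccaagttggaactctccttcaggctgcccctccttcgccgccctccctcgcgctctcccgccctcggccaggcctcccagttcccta
Cxcr7: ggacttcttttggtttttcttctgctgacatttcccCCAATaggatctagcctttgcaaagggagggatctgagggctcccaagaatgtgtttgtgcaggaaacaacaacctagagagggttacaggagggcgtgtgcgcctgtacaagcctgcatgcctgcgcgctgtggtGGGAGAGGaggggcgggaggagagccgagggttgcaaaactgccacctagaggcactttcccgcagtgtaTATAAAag
Gm14862: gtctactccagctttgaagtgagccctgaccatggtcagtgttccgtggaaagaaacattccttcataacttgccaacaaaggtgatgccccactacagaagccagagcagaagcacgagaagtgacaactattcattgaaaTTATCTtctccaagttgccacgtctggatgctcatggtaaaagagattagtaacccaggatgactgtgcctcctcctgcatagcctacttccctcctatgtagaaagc
Arhgef12: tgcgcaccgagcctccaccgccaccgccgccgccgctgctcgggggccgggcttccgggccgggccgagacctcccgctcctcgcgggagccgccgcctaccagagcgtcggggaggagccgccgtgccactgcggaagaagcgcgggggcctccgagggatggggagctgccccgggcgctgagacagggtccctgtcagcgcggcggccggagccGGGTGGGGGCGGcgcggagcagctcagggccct

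The window of Artn held none of these motifs. That of Cxcr7 held a CACCC-type match at -78 to -71, CCAAT at -214 to -210 and TATAAA at -8 to -3, counted back from the start. Gm14862 had a GATA match at -108 to -103, and Arhgef12 had 2 overlapping CACCC-type matches at -33 to -26 and -29 to -22. GC content was 63.6% for Artn, 54.0% for Cxcr7, 46.8% for Gm14862 and 79.6% for Arhgef12, against a median of 52.4% over all windows. Of 32536 RefSeq windows of the same length, 26.5% held the GATA motif, 46.2% the CACCC-type motif, 12.3% TATAAA and 33.8% CCAAT. No motif was present in all 4 windows. A match describes letters only and is not evidence of a bound site.

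Artn, the artemin ligand, had 0 counts in all 3 S0-Low libraries. In S0-Medium it had 9, 0 and 0 counts in replicates 1, 2 and 3. In S1 it had 17, 18 and 21 counts, and in S2 47, 79 and 205. In S3 it had 925, 2422 and 2676 counts. After scaling by TMM to a common library size (normalized counts), S1 ranged from 13.8 to 22.4, S2 from 63.6 to 301 and S3 from 2240 to 4920. No library of any of these populations fell within the range of its neighbour, so the 4 populations from S0-Medium to S3 were fully ordered. Means were 2.22 ± 3.85 for S0-Medium, 17.1 ± 4.66 for S1, 144 ± 136 for S2 and 3551 ± 1341 for S3 (SD, n = 3). The S3 mean was 24.7 times that of S2 and at least 830 times that of S0-Low, taking 3 counts per library as the floor. Artn was thus counted in every library from S1 on, but 4.05% of its S3 mean was present in S2.

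Gm14862 followed a similar course. It had 0 counts in each S0-Low library and 9, 7 and 0 in S0-Medium. It had 21, 34 and 70 counts in S1, 14, 140 and 354 in S2, and 1480, 1504 and 915 in S3. Normalized counts ranged from 17.1 to 74.8 in S1 and from 19 to 520 in S2. These populations overlapped, because S2 replicate 1, at 19, lay within the S1 range. S3 lay at 1682 to 3585, above every S2 library. Means were 3.96 ± 3.51 for S0-Medium, 40.1 ± 30.6 for S1, 219 ± 265 for S2 and 2479 ± 988 for S3 (SD, n = 3). The S3 mean was 11.3 times that of S2 and at least 579 times that of S0-Low. As for Artn, every library from S1 on held more than 3 counts, and S2 held 8.85% of the S3 mean.

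Cxcr7, the atypical chemokine receptor, was the least regular of the 4 genes. It had 0 counts in each S0-Low library, 8, 8 and 80 in S0-Medium, and 27, 22 and 127 in S1. In S2 it had 148, 47 and 0 counts. In S3 it had 427, 1196 and 1783. In normalized counts S0-Medium ran from 5.93 to 75.1, S1 from 18.4 to 136 and S2 from 0 to 200, so these 3 populations overlapped one another. Only S3, from 1034 to 3278, stood above every other erythroid library. Means were 29 ± 39.9 for S0-Medium, 58.7 ± 66.7 for S1, 80.2 ± 106 for S2 and 2012 ± 1149 for S3 (SD, n = 3). The S3 mean was 25.1 times that of S2 and at least 470 times that of S0-Low. The value of 0 in S2 replicate 3 allows up to 4.4 normalized counts at that depth, yet the same library had the highest S2 value of Artn, Gm14862 and Arhgef12. Cxcr7 was therefore present in all S0-Medium and S1 libraries, and S3 was the first population from which every later erythroid library exceeded 3 counts.

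Arhgef12, the RhoA exchange factor, differed from the other 3 in being counted in every library. It had 764, 737 and 110 counts in S0-Low and 3108, 2523 and 1730 in S0-Medium. It had 6633, 4986 and 5144 counts in S1 and 5259, 6688 and 9048 in S2. S3 held 12736, 27028 and 23823. Normalized counts ranged from 292 to 632 in S0-Low, from 1624 to 2303 in S0-Medium, from 4160 to 5495 in S1, from 5699 to 13282 in S2 and from 30848 to 43802 in S3, with no overlap between any of these 5 populations. Means were 504 ± 185, 1936 ± 342, 5017 ± 744, 8701 ± 4031 and 37873 ± 6546 (SD, n = 3). The ratios of successive means were 3.84, 2.59, 1.73 and 4.35, the first and the last of which the choice of the gene bears on. S3 was 75.2 times S0-Low. Scaling by library totals alone lowered the S3 means to 24170 for Arhgef12, 2228 for Artn, 1243 for Cxcr7 and 1649 for Gm14862, and the S3 to S2 ratios to 3.11, 17.7, 16.8 and 8.64.

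**Figure D1:**
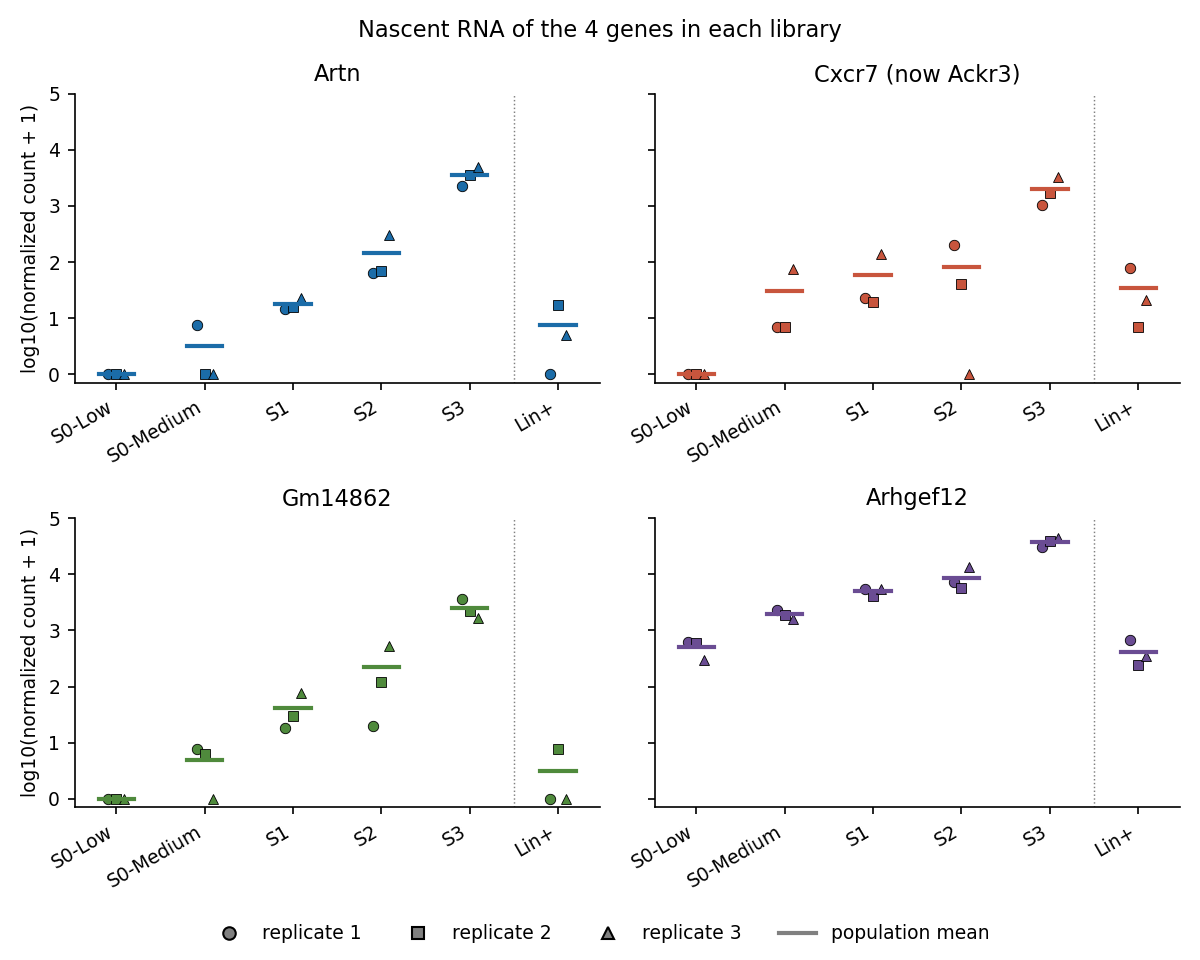
Normalized counts of Artn, Cxcr7, Gm14862 and Arhgef12 in each of the 18 libraries, on a log10(normalized count + 1) axis, by sorted population. Points are libraries with a shape for each replicate number, and bars are population means. The means of Artn and Gm14862 climb over S1, S2 and S3, though the S1 and S2 libraries of Gm14862 overlap. Cxcr7 is spread from 0 to 200 in S2 before S3, and Arhgef12 is present in all libraries.

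Put on a common scale, the 4 genes differed in how much of their S3 level was reached earlier. Arhgef12 stood at 5.11% of its S3 mean by S0-Medium, at 13.2% by S1 and at 23% by S2. Gm14862 had 0.16%, 1.62% and 8.85% in these populations, and Artn 0.0626%, 0.481% and 4.05%. Cxcr7 had 1.44%, 2.92% and 3.98%. These shares moved with single libraries. Without S0-Medium replicate 3 the share of Cxcr7 in S0-Medium was 0.296%, and without S0-Medium replicate 1 that of Artn was 0% and that of Gm14862 0.105%. Without S1 replicate 3 the S1 shares were 1% for Cxcr7 and 0.917% for Gm14862. Without S2 replicate 3 the S2 shares were 16.9% for Arhgef12, 5.97% for Cxcr7, 2.79% for Gm14862 and 1.84% for Artn, which puts Cxcr7 above Gm14862 and Artn. Without S2 replicate 1 the share of Cxcr7 was 0.995%. Among all 16555 genes tested in the erythroid libraries, 8.99% had every S3 library above every S2 library, and all 4 genes were among these, a count from which nothing is read because S3 levels chose the genes. The floor of 3 counts was 7.97 normalized counts in S0-Low replicate 3, the shallowest library, and 2.39 to 2.48 in the other two S0-Low libraries. Floors cover counting error only, since no molecular identifiers were used after 14 cycles of PCR.

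**Figure D2:**
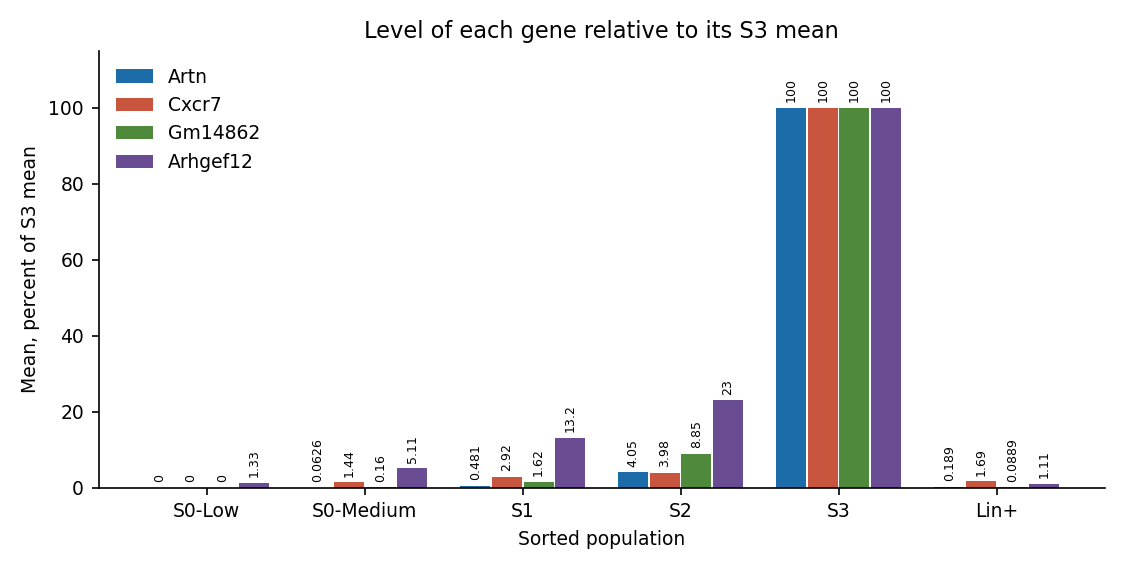
Mean normalized count of each gene in each population as a percent of its own S3 mean (linear axis from 0). In S2 the bars stand at 4.05% for Artn, 3.98% for Cxcr7, 8.85% for Gm14862 and 23% for Arhgef12, and in Lin+ they are at or under 1.69%.

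Between S0-Medium and S2, populations that took no part in the choice, Artn, Gm14862 and Arhgef12 rose, and Cxcr7 did not pass the test. Artn rose by 5.87 on the log2 scale (SE 1.14, 95% interval 3.43 to 8.32, edgeR adjusted p = 0.0144). Gm14862 rose by 5.70 (SE 1.28, interval 2.95 to 8.45, edgeR adjusted p = 0.0256) and Arhgef12 by 2.16 (SE 0.37, interval 1.38 to 2.94, edgeR adjusted p = 0.00585). Each was higher in S2 in 3 of 3 same-numbered pairs. Cxcr7 differed by 1.47 (SE 1.41, interval -1.56 to 4.50, edgeR adjusted p = 0.699), was higher in 2 of 3 pairs, and its populations overlapped. The 3 of 4 genes called higher compare with 1.27% of the 16555 genes tested (210 genes), and 2.55% were lower in S2. The 4 genes were chosen for a rise from S0-Low to S3, which spans this interval, so that share is not a matched background. The fit also held the S0-Low and S3 libraries. With library totals in place of TMM the lower share of all calls was 83.4% rather than 66.8%. With the replicate number as a block the genes called went from 632 to 1344, of which 692 were higher, and the same 3 genes passed (adjusted p of 0.00906, 0.0347 and 0.00203).

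The call for Gm14862 did not hold in several smaller sets of libraries. Without S0-Medium replicate 1, 2 or 3 its edgeR adjusted p was 0.101, 0.0833 and 0.0587, and without S2 replicate 3 it was 0.098, with log2 changes from 4.05 to 6.18. With only the 6 libraries compared in the fit, which leaves out the S0-Low, S1 and S3 libraries, neither Artn (adjusted p = 0.13) nor Gm14862 (0.117) passed. Artn passed with each library left out in turn, with adjusted p up to 0.0431, although its fitted change was 9.99 without S0-Medium replicate 1, which held all of its S0-Medium counts. Arhgef12 passed in each of its 13 alternatives. S2 replicate 3 also had the highest summed level of 6 erythroid markers among the S2 libraries, 10308 CPM, counts after each library is brought to the same total, against 4780 and 4901. Replicate 3 was highest in that sum in all 5 erythroid populations, and its part in the values of these genes was not tested. Without S2 replicate 3 the changes of Artn and Arhgef12 were 4.75 and 1.72.

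The single steps within this interval did not pass the test for any of the 4 genes. From S0-Medium to S1 the log2 change was 2.81 for Artn (SE 1.05, edgeR adjusted p = 0.541) and 3.25 for Gm14862 (SE 1.17, edgeR adjusted p = 0.512). It was 1.37 for Arhgef12 (SE 0.36, edgeR adjusted p = 0.224) and 1.02 for Cxcr7 (SE 1.40, edgeR adjusted p = 1). DESeq2 and edgeR without a filter on low counts called Arhgef12 (adjusted p of 0.0335 and 0.0388), and the latter also called Gm14862 (0.0469). From S1 to S2 the changes were 3.06 for Artn (SE 0.97), 2.45 for Gm14862 (SE 1.08), 0.79 for Arhgef12 (SE 0.35) and 0.45 for Cxcr7 (SE 1.38). The edgeR adjusted p was 0.819 for Artn and 1 for the others. In both steps 0% of the 16555 genes were called in either direction by edgeR. At an unadjusted p under 0.05 there were 278 higher and 857 lower genes in the step from S0-Medium to S1, and 166 and 501 in the step from S1 to S2. DESeq2 called 406 and 159 genes. With the replicate block edgeR called 57 genes in the step from S0-Medium to S1 and 0 in the other, none of the 4 among them. In the main edgeR fit the lack of a call in these steps extended to all genes, and it does not show that the 4 genes stayed level.

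**Figure D3:**
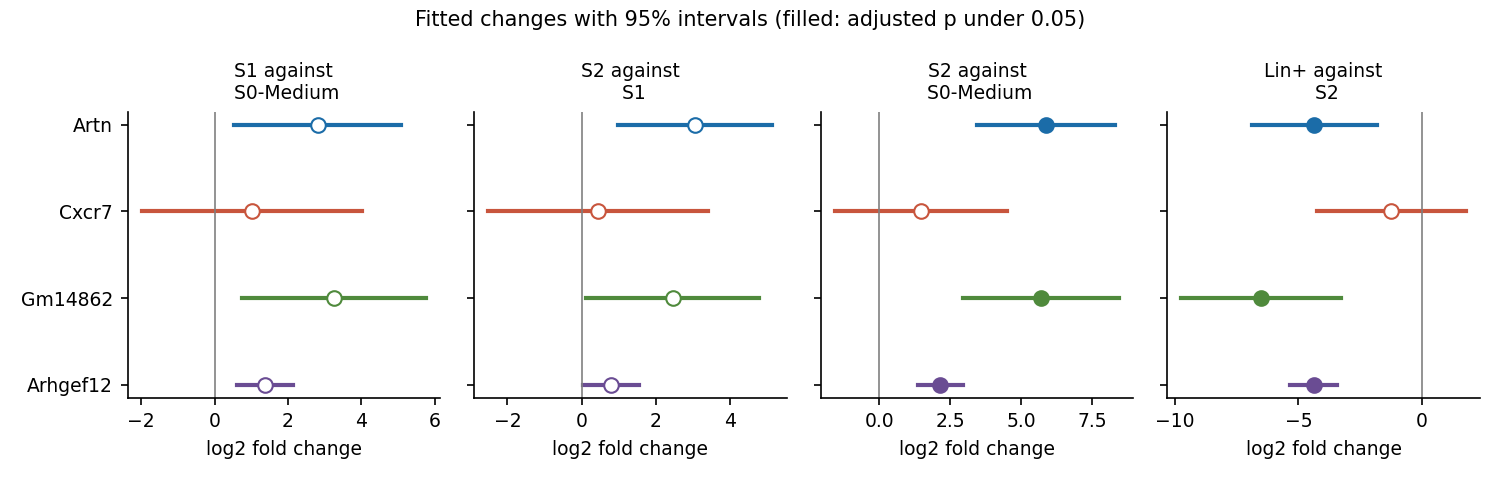
Fitted log2 fold changes of the 4 genes with 95% intervals (horizontal lines) in the 4 comparisons that took no part in their choice, and filled points for an edgeR adjusted p under 0.05. Only S2 against S0-Medium and Lin+ against S2 have filled points, for Artn, Gm14862 and Arhgef12, while each interval of Cxcr7 includes 0.

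Lin+ cells, the non-erythroid blood cells of the same organ, had little of these RNAs. Artn had 0, 22 and 6 counts there, and Gm14862 had 0, 9 and 0. Cxcr7 had 71, 8 and 30 counts, and Arhgef12 had 630, 323 and 519. As normalized counts the means were 6.71 ± 8.42, 2.2 ± 3.82, 34.1 ± 37.4 and 420 ± 230 (SD, n = 3). The Lin+ levels of Arhgef12, from 237 to 678, overlapped those of S0-Low, and those of Artn overlapped S0-Medium and S1. The low means rest on single libraries too, since without Lin+ replicate 2 they were 1.99 for Artn and 0 for Gm14862, and without Lin+ replicate 1 that of Cxcr7 was 12.9. For each gene every S3 library lay above every Lin+ library. Nothing is read from this because S3 levels chose the genes, and the share of all genes with such a gap was not counted.

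Against S2, Lin+ cells had lower Artn (log2 change -4.35, SE 1.18, edgeR adjusted p = 0.0141), lower Gm14862 (-6.50, SE 1.52, edgeR adjusted p = 0.00575) and lower Arhgef12 (-4.37, SE 0.45, edgeR adjusted p = 4.98e-06). Cxcr7 differed by -1.24 (SE 1.41, interval -4.24 to 1.76, edgeR adjusted p = 0.591), and its Lin+ and S2 ranges overlapped. Over all 17755 genes tested, 8.34% were lower in Lin+ and 16.3% higher. These shares are likewise not matched to genes chosen for a high level in S3. The lower share of all calls was 33.8%, or 22.8% with library totals. The call for Artn was lost without S2 replicate 3 (edgeR adjusted p = 0.0629), without Lin+ replicate 3 (0.0601) and with only the 6 libraries compared (0.0649). Those for Gm14862 and Arhgef12 held in all 12 and 13 alternatives. This comparison shares its S2 libraries with the comparison of S2 and S0-Medium.

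Erythroid markers followed the labels. The summed level of Gata1, Klf1, Epor, Tfrc, Slc4a1 and Alas2 was 485 to 927 CPM in S0-Low, 20822 to 34165 in S3 and 262 to 349 in Lin+. Neutrophil markers summed to 2710 to 5409 CPM in Lin+ and to at most 1.49 in S3. S0-Low, although sorted as lineage-negative, also held neutrophil markers at 327 to 775 CPM, endothelial markers at 81.4 to 262 and megakaryocyte markers at 32.5 to 142. In S3, macrophage markers summed to 0.0575 to 4.28 CPM with 6 of 7 genes at or under 3 counts in each library, lymphoid markers to at most 1.08, hepatocyte markers to at most 0.378 and mesenchymal markers to at most 0.18. Endothelial markers were at 7.93 to 12.6 CPM in S3 against 0.169 to 2.16 in S2, with 3 of 5 at or under 3 counts in each S3 library, and megakaryocyte markers at 18.3 to 86.6 against 13.6 to 22.9. Their part in the levels of the 4 genes was not tested.

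Genes that were silent in S0-Low and reached a sizeable level in S3 were few. In all, 104 genes had at most 3 counts in each S0-Low library and an S3 mean of 100 normalized counts or more. By S3 mean Artn ranked 2, Gm14862 ranked 4 and Cxcr7 ranked 8 among these 104 genes. Their S2 mean was 4.12% of the S3 mean at the median, with quartiles of 0.692% and 16.7%, and the values of Artn, Cxcr7 and Gm14862 (4.05%, 3.98% and 8.85%) lay within these quartiles. In Lin+ the median was 0.451%. Arhgef12, which was counted in S0-Low, ranked 183 by S3 mean among all genes. These ranks are of counts, which are not divided by gene length. S0-Low and S3 levels chose the genes, so nothing is read from the ranks.

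The 4 patterns were alike to different degrees. Over the 18 libraries, the Pearson correlation of log2(CPM + 0.5) was 0.97 between Artn and Gm14862. It was 0.853 between Artn and Arhgef12, 0.878 between Gm14862 and Arhgef12, and 0.837, 0.771 and 0.753 between Cxcr7 and Artn, Gm14862 and Arhgef12. By likeness to Artn, Gm14862 ranked 25 of 17754 genes, and Artn ranked 5 for Gm14862. The libraries share their populations, replicate numbers and scaling, and the S0-Low and S3 libraries among them chose the genes. These values therefore describe the profiles and carry no test. The genes nearest to Artn were Slc2a1 (0.993), which encodes a glucose transporter, D5Ertd579e (0.987) and Epb4.1 (0.982), which encodes the membrane skeleton protein 4.1, followed by an unnamed gene and Slc4a5, a bicarbonate transporter gene (0.978). Unlike Artn, Slc2a1 and Epb4.1 were present in S0-Low, with means of 2141 and 13549 normalized counts.

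Gm14862 was nearest to Ninj2 (0.979), Map2k3 (0.976), Ddx26b (0.974), Syt14 (0.971) and Artn itself. Arhgef12 was nearest to Arrb1 (0.987), which encodes β-arrestin 1, and to Spnb1 (0.986), which encodes erythroid β-spectrin, followed by Gmpr (0.978), Fech (0.974), which encodes the enzyme that inserts iron into haem, and Tfrc (0.972), the CD71 gene of the sort. The profile of Cxcr7 had fewer like it, led by Hadha (0.928), Oaz1 (0.924), an unnamed gene and Hsd3b6 and Arfgap3 (both 0.907). Correlations above 0.9 were reached by 426 genes for Artn, 444 for Gm14862 and 342 for Arhgef12, but by 7 for Cxcr7, of 17754 ranked. With a pseudocount of 0.1 or 2, 11 of these 20 nearest genes were again among the nearest 5.

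Nascent RNA of the receptors through which artemin acts was close to absent from the erythroid populations. Ret had 0 counts in all S0-Low and S2 libraries, at most 10 in the other erythroid libraries, and 32, 5 and 12 in Lin+. Gfra3 had at most 4 counts in any library and 0 in all 3 S3 libraries. The list drawn up around Artn held 12 other genes, namely the ligands and receptors of the GDNF family together with Gdf15, Ncam1 and Sdc3. These last are not members of the family. Gdf15 encodes a distant TGF-β superfamily ligand whose receptor GFRAL signals through RET, and Ncam1 and Sdc3 encode surface proteins that can bind GDNF family ligands. Of the 12 genes, 7 passed the filter on low counts. Between S0-Low and S3, Gdf15 rose by 9.56 on the log2 scale (SE 2.06, edgeR adjusted p = 0.00244), while Gfra1 and Ncam1 fell and had 0 counts in all S3 libraries. Gdf15 had 0, 2 and 0 counts in S0-Low and 298, 291 and 347 in S3, and in S2 it had 0, 21 and 33. Over all 16555 genes, 13.4% were higher and 22.4% lower in S3 than in S0-Low, and the lower share of calls was 62.6%, or 84.3% with library totals. The fall of Gfra1 was lost without S0-Low replicate 1 or 2 or any S3 library in turn (edgeR adjusted p from 0.0661 to 0.0933).

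None of these 7 genes passed edgeR's test between S2 and S3, where 3.26% of all genes were higher and 6.09% lower. With the replicate block, which raised the calls in this comparison from 1548 to 3074, Gdf15 passed at an adjusted p of 0.0498, against 0.0751 without it. DESeq2 called 2 genes of the list higher in S3, Gdf15 and Sdc3, as did edgeR without a filter, and Sdc3 passed without S3 replicate 1. Sdc3 had 0 counts in every S2 library and 0, 58 and 0 in S3, so its calls rest on S3 replicate 2 alone. The lower share of calls was 65.1%, or 88.7% with library totals. No median change is given for this list, since Gfra1 and Ncam1 were under the floor in both populations. Between S0-Medium and S2, 1 of the 7 passed, Ncam1, which was lower, against 2.55% of all genes. In Lin+, Gfra1, Ncam1 and Sdc3 were higher than in S2, against 16.3% of all genes, and the call for Gfra1 was lost without any of the 6 libraries in turn (edgeR adjusted p from 0.0528 to 0.106).

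Among the genes of the CXCL12 axis, Cxcr4, the signalling receptor for the same chemokine, had the reverse course to Cxcr7. It had 836, 699 and 176 counts in S0-Low, 325, 60 and 0 in S0-Medium, at most 4 in S1, and 0 in every S2 and S3 library. It fell between S0-Low and S3 (edgeR adjusted p = 0.00566) and was higher in Lin+ than in S2 (edgeR adjusted p = 0.000385), with 1808, 5188 and 4875 counts in Lin+. Cxcl12 itself had 0 counts in all S1, S2 and S3 libraries. Ackr1, the Duffy antigen and another atypical chemokine receptor, had 9, 12 and 0 counts in S0-Low and 504, 1540 and 1473 in S3. It rose by 8.30 between them (SE 1.36, edgeR adjusted p = 0.000325) and by 6.03 between S0-Medium and S2 (SE 1.22, edgeR adjusted p = 0.0145), the latter lost without S0-Medium replicate 1 (0.0726).

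The arrestin gene Arrb1 rose by 2.96 from S0-Low to S3 (SE 0.29, edgeR adjusted p = 7.33e-06), while Arrb2 fell by 3.70 (SE 1.07, edgeR adjusted p = 0.0153), a call lost with only the 6 libraries compared (0.0725). The receptor kinase gene Grk2 fell by 0.97 (SE 0.35, edgeR adjusted p = 0.0411), a call lost without S0-Low replicate 1 or 2 or S3 replicate 1 (0.0615 to 0.117). Thus 2 of the 5 genes tested besides Cxcr7 were higher and 3 lower, against 13.4% and 22.4% of all genes, with a median log2 change of -0.97 against -0.54 over all genes. From S2 to S3, where 3.26% of all genes were higher and 6.09% lower, 1 of the 5 passed, Arrb1, with a change of 0.99 (SE 0.28, edgeR adjusted p = 0.0345) that did not hold with library totals (0.50, adjusted p = 0.179) or without S2 replicate 1 or 2 or S3 replicate 2 or 3 (0.0822 to 0.147). From S0-Medium to S2, Ackr1 and Arrb1 were the 2 genes that passed, both higher, against 1.27% of all genes, and Arrb1 did not pass without any S0-Medium library in turn or without S2 replicate 3 (0.0599 to 0.0918). In Lin+, 4 of the 6 genes tested were higher than in S2, Cxcr3, Cxcr4, Arrb2 and Grk2, and Ackr1 and Arrb1 were lower, against 16.3% higher and 8.34% lower of all genes. The call for Cxcr3 was lost without any of the 6 libraries in turn (0.0537 to 0.0838).

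For Arhgef12, the G12/13 to RhoA list had 10 other genes, of which 9 were tested. Between S0-Low and S3, 2 were higher and 4 lower, against 13.4% and 22.4% of all genes, and their median log2 change was -1.01 against -0.54 over all genes. Rhoa, the GTPase that Arhgef12 acts on, rose by 1.68 (SE 0.30, edgeR adjusted p = 0.000607), and its means were 5526 ± 509 for S0-Low and 17715 ± 5489 for S3 (SD, n = 3). Rock1, which encodes a kinase activated by RhoA, rose by 1.65 (SE 0.34, edgeR adjusted p = 0.00191), from 8566 ± 2849 to 26888 ± 9318 (SD, n = 3). With library totals the rise of Rhoa passed (0.80, adjusted p = 0.0269) and that of Rock1 did not (0.75, adjusted p = 0.0607), while Rock1 passed in its 12 other alternatives. The related exchange factors went down, Arhgef1 by -1.01 (SE 0.29, edgeR adjusted p = 0.015) and Arhgef11 by -2.20 (SE 0.69, edgeR adjusted p = 0.023), as did the G protein gene Gna12 (-1.49, edgeR adjusted p = 0.0162) and Rhob (-3.75, edgeR adjusted p = 0.0182). Each of these 4 falls was lost without a certain library, Arhgef1 without S0-Low replicate 1 (0.0557), Arhgef11 without S0-Low replicate 3 (0.071), Gna12 without S3 replicate 3 (0.0555) and Rhob without S3 replicate 2 (0.055).

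Rhoa also rose between S2 and S3 (1.18, SE 0.29, edgeR adjusted p = 0.02), the 1 gene of the 9 to do so against 3.26% of all genes, but not with library totals (0.66, adjusted p = 0.106) or without S2 replicate 1 or 2 or S3 replicate 3 (0.0898 to 0.103). With the replicate block 2 of the 9 passed, Rhoa and Rock1 (0.95, adjusted p = 0.0155, against 0.0868 without the block). None of the 9 passed between S0-Medium and S2, where Arhgef12 did. In Lin+, Arhgef1, Arhgef11, Rhob and Rhoc were higher than in S2, against 16.3% of all genes, whereas Arhgef12 was lower. None of the list was lower without the replicate block, and 1 of the 10 genes tested, Rock1, was lower with it (-0.66, adjusted p = 0.0448, against 0.112 without it). The call for Arhgef11 was lost without any of the 6 libraries in turn (edgeR adjusted p from 0.0509 to 0.116), and that for Rhoc without any S2 library (0.0506 to 0.0554).

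**Figure D4:**
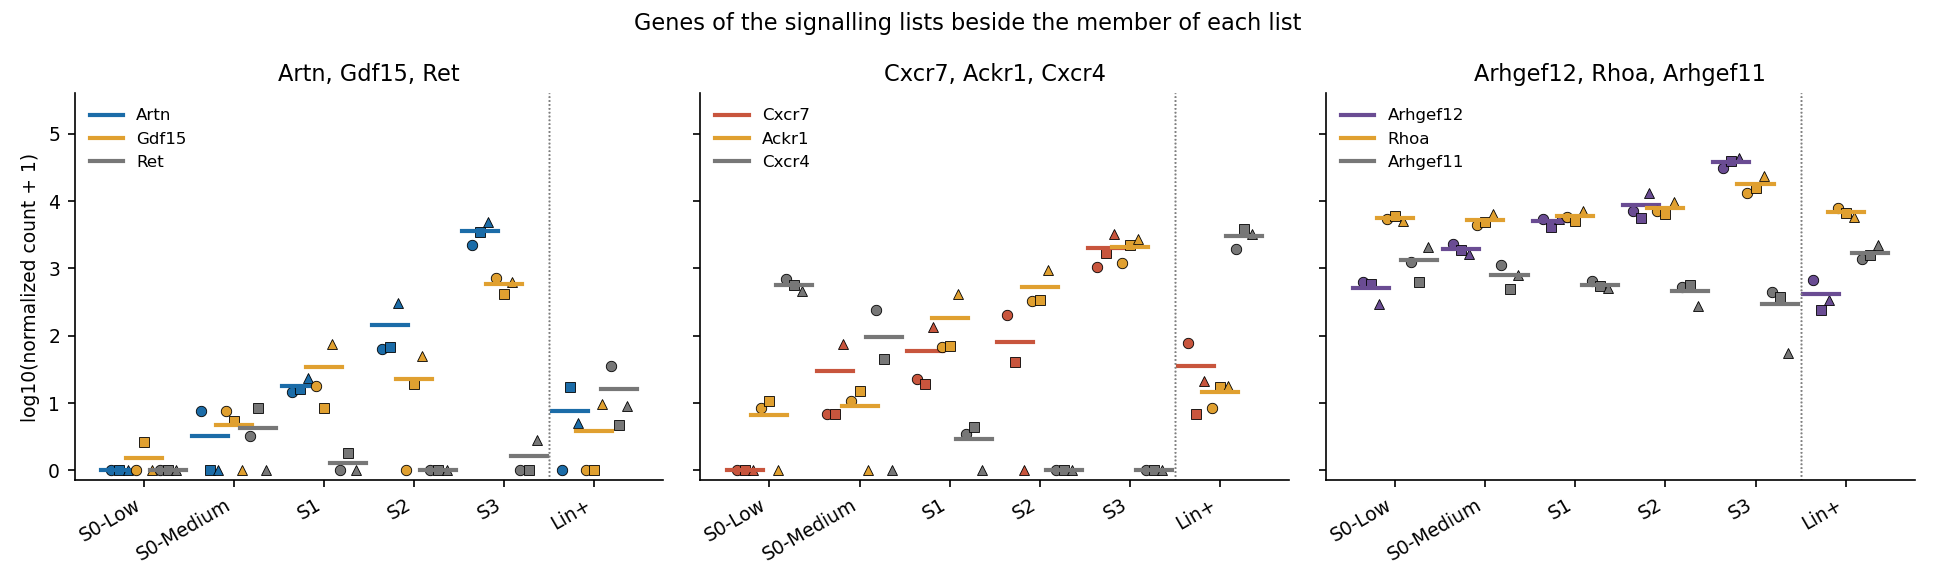
Normalized counts on a log10(normalized count + 1) axis in each library, with bars for population means and a shape for each replicate number (circle 1, square 2, triangle 3). Artn is beside the ligand gene Gdf15 and the receptor gene Ret, Cxcr7 beside the receptor genes Ackr1 and Cxcr4, and Arhgef12 beside Rhoa and Arhgef11. Cxcr4 falls to 0 in S2 and S3 where Ackr1 and Cxcr7 are high in S3. Heights are not comparable between genes, since counts are not divided by gene length.

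Of the genes within 100 kb of the 4, 16 were in the table and 11 were tested. Slc6a9, which encodes the glycine transporter GlyT1 that supplies haem synthesis, lies 56.6 kb from Artn. It had 309, 692 and 1726 normalized counts in S0-Low, 4684, 5609 and 20379 in S2 and 35322, 42369 and 63194 in S3. Like Artn, Slc6a9 had its highest level in S3, but from a level above 0 in S0-Low. It rose by 5.69 from S0-Low to S3 (SE 0.78, edgeR adjusted p = 8.04e-05) and by 2.87 from S0-Medium to S2 (SE 0.68, edgeR adjusted p = 0.029), and it was lower in Lin+ than in S2 (-4.75, edgeR adjusted p = 0.000163). Its change of 2.21 from S2 to S3 (SE 0.67, edgeR adjusted p = 0.0492) was lost with library totals (0.0827) and without S2 replicate 1 or 2 or any S3 library (0.0574 to 0.186). That from S0-Medium to S2 was lost without any S0-Medium library or S2 replicate 3 (0.0569 to 0.176), and the replicate block gave adjusted p of 0.000205 and 0.000474.

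Between Slc6a9 and Artn, Ipo13 lies 10.7 kb from Artn and encodes a nuclear transport receptor. It rose by 1.78 from S0-Low to S3 (SE 0.48, edgeR adjusted p = 0.0101), though not with library totals (0.0892). On the other side, 1.4 kb from Artn, the sialyltransferase gene St3gal3 fell by 1.60 (SE 0.47, edgeR adjusted p = 0.0165), a call lost without S3 replicate 2 or 3 (0.0583 and 0.0585). Genes around Artn thus moved in opposite directions.

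Xk, which encodes a red cell membrane protein linked to the Kell antigen, lies 15.9 kb from Gm14862 on the other strand. Its means were 2079 ± 1288 for S0-Low, 2758 ± 516 for S0-Medium, 6866 ± 3351 for S2, 13185 ± 1591 for S3 and 870 ± 214 for Lin+ (SD, n = 3). Xk rose from S0-Low to S3 (2.66, SE 0.44, edgeR adjusted p = 0.000344) and was lower in Lin+ than in S2 (-2.98, SE 0.43, edgeR adjusted p = 0.000104). It did not pass from S0-Medium to S2 (1.31, edgeR adjusted p = 0.0964) or from S2 to S3 (0.95, edgeR adjusted p = 0.16), but did with the replicate block (0.00961 and 0.0108). Lancl3, whose span holds Gm14862 on the opposite strand, had 212, 126 and 0 normalized counts in S0-Low and 46, 130 and 23.9 in S3. Its S0-Low and S3 ranges overlapped. Use of strand in counting is not given in the sources used here, so reads of overlapping genes on opposite strands may not be told apart.

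Near Arhgef12, Tlcd5 (2.9 kb away) rose by 5.15 from S0-Low to S3 (SE 1.88, edgeR adjusted p = 0.0433), from at most 7 counts to 64, 109 and 40. That call was lost with library totals (0.0627) and without any of the 6 libraries in turn (0.0601 to 0.112). The neighbour of Cxcr7 in the table, Iqca, had 0 counts in every S2 and S3 library and was not tested. In sum, 4 of the 11 tested neighbours rose from S0-Low to S3 and 1 fell, against 13.4% and 22.4% of all genes, with a median log2 change of 1.03 against -0.54 over all genes. From S2 to S3 and from S0-Medium to S2, 1 of the 11 was higher each time, Slc6a9, against 3.26% and 1.27% of all genes. With the replicate block Xk was also higher in both (edgeR adjusted p of 0.0108 and 0.00961). St3gal3 was then lower from S2 to S3 (-1.37, edgeR adjusted p = 0.022, against 0.104 without the block). With only the 6 libraries compared, the calls of Slc6a9, Arrb1 and Rhoa from S2 to S3 (adjusted p of 0.131, 0.219 and 0.152), of Slc6a9, Arrb1 and Ackr1 from S0-Medium to S2 (0.0611, 0.0854 and 0.0601) and of Ipo13, Grk2, Arhgef11 and Rhob from S0-Low to S3 (0.0757, 0.062, 0.0795 and 0.0893) were lost.

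**Figure D5:**
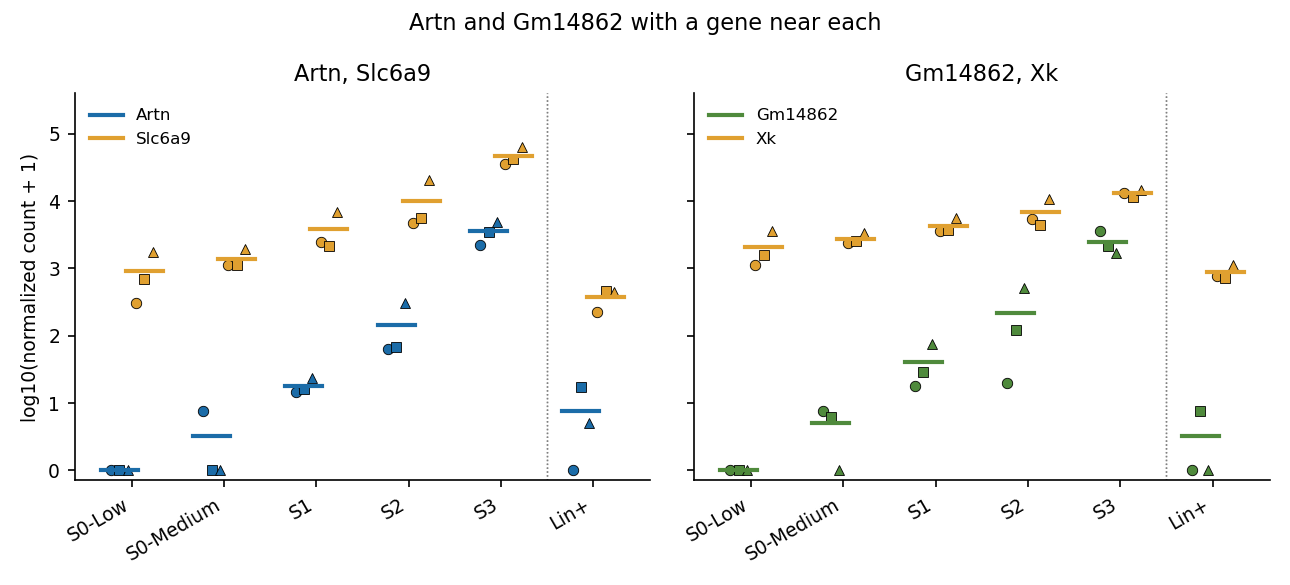
Normalized counts on a log10(normalized count + 1) axis of Artn with Slc6a9 and of Gm14862 with Xk in each library, with bars for population means and a shape for each replicate number (circle 1, square 2, triangle 3). Slc6a9 and Xk are present in all libraries, at 309 and 1117 or more in S0-Low, where Artn and Gm14862 are at 0. Heights are not comparable between genes.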

How the data were processed

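The authors made stranded libraries from 4sU-labelled RNA (14 PCR cycles, no molecular identifiers), quantified them with Kallisto (0.43.0 in the submitters' processing notes, which also name GRCm38) and deposited whole-number counts per gene, without normalization or pooling. The transcript set, the treatment of introns and the use of strand are not given in the sources used here. Kallisto divides reads shared by near-identical transcripts by estimation.

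Populations and replicate numbers came from the labels. The 4 genes, the signalling lists and the markers were chosen with earlier results of these data known, and the marker and pathway lists are not independent evidence. Genes named besides the 4 are the 5 nearest to each by correlation, genes within 100 kb in RefSeq GRCm38.p6, and the lists. Results for 1 marker gene and 1 gene of the G12/13 to RhoA list are not reported here.

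Counts were analysed with edgeR 4.0.16 in R 4.3.3 (TMM, filterByExpr by population, two-sided quasi-likelihood test, Benjamini-Hochberg adjustment over all tested genes, threshold 0.05). The 15 erythroid libraries shared 1 fit (16555 genes, common biological coefficient of variation 0.795), and all 18 entered the Lin+ comparison (17755 genes, 0.771). Normalized counts were scaled to the mean effective library size. A floor of 3 counts corresponds, before TMM scaling, to 0.317 CPM for the library of lowest depth and 0.074 CPM for that of highest depth. Tested on simulated data for S2 against S0-Medium (16016 genes), the fit recovered 17.5% of 97 genes changed 4-fold and 50% of 100 changed 16-fold. In simulated S1 against S0-Low, where no gene was changed, it called 0 genes. Calls among the unchanged genes of S2 against S0-Medium were not counted. Alternatives were DESeq2 1.42.0, RLE factors, library totals, no filter, at least 10 counts in every compared library, the 6 libraries compared alone, a replicate block, other pseudocounts, and each library left out. Shares of the S3 mean with library totals (S2) or without a library of the earlier population were added after the values were seen.

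Neither the labels nor the study say what a shared replicate number stands for. Deviations of same-numbered libraries correlated at 0.169 to 0.553 in every pair of 5 comparisons, which were marked as paired. They correlated at 0.084 to 0.134 in S3 against S0-Low, which was not. Unless the replicate block is named, the tests used population alone and ignored this pairing. No replicates agreed within sampling noise (chi-square per degree of freedom 79.3 to 475). Figures were drawn with matplotlib 3.10.9 from tables made with Python 3.11.15, pandas 2.3.3 and numpy 2.4.6.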

Additional observations from a re-analysis of the deposited data

How the results depend on the processing

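Over the 198 alternatives to the tests of the 4 genes, 182 kept the direction and the side of the threshold, 9 lost a call, 3 gained one and 4 reversed. All 4 reversals were of Cxcr7, which had no call: -0.51 without S1 replicate 3 (S1 against S0-Medium), and without S2 replicate 1 -1.50 (S2 against S1), -0.49 (S2 against S0-Medium) and 0.74 (Lin+ against S2). With other libraries left out these 4 changes of Cxcr7 reached 3.21, 1.98, 3.65 and -2.62. With only the 6 libraries compared, edgeR adjusted p was 0.13 for Artn and 0.117 for Gm14862 in S2 against S0-Medium and 0.0649 for Artn in Lin+ against S2. The cause was not tested.

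The number of genes called also moved between settings. S1 against S0-Medium went from 0 to 406 with DESeq2, 327 without a filter and 57 with the replicate block. S2 against S1 went from 0 to 159 with DESeq2, 77 without a filter, and 0 to 2 with a library left out. S2 against S0-Medium went from 632 to 1762 with DESeq2, 1337 without a filter, 103 with a minimum of 10 counts per compared library, 1344 with the replicate block, 225 with only the 6 libraries compared, and 170 (without S0-Medium replicate 1) to 496 with a library left out. S3 against S2 went from 1548 to 3413 with DESeq2, 2552 with library totals, 2546 without a filter, 3074 with the replicate block, 98 with only the 6 libraries compared, and 692 (without S2 replicate 2) to 2375 (without S2 replicate 3). Lin+ against S2 went from 4376 to 1647 with a minimum of 10 counts per compared library and 2895 to 3399 with a library left out. S3 against S0-Low went from 5932 to 3034 with a minimum of 10 counts per compared library, 3834 with only the 6 libraries compared, and 4344 to 5774 with a library left out. The replicate block, that is the pairing by replicate number, changed no call of the 4 genes. In S3 against S0-Low, where the numbers did not pair the libraries, it gave 7014 genes.

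Scaling shifted the median log2 change of all genes, from -0.54 to -1.36 with library totals in S3 against S0-Low, from -0.31 to -0.82 in S3 against S2, from -0.09 to -0.36 in S2 against S0-Medium and from 0.08 to 0.36 in Lin+ against S2. Leaving out 1 library took the S2 mean of Artn from 144 to 65.5, of Gm14862 from 219 to 69.1 (both without S2 replicate 3) and of Cxcr7 from 80.2 to 20 (without S2 replicate 1). Of the 20 nearest genes, 11 were found again with either pseudocount. Of 117 alternatives for the counts of listed genes called, 92 stayed within 1.5 times.

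Depth limits the lowest levels: 3 counts are 7.97 normalized counts in S0-Low replicate 3, so a lower level of Artn, Cxcr7 or Gm14862 there was not detectable. With 3 libraries a population and a biological coefficient of variation near 0.795, changes of 4-fold were mostly missed in simulated data.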
